A study of Homo sapiens with 12 samples.

Results

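The genes described here are the histone genes of the replication-dependent and linker classes, taken as every row of the count table whose gene description names a clustered histone or a linker histone and is not marked as a pseudogene. The rule found 20 of 20771 genes in the table, of which 19 are described, and 4 further rows with these words were pseudogenes and were left out. By class the 19 were 3 linker histones H1 (H1-2, H1-4 and H1-10), 4 H2A genes, 8 H2B genes, 2 H3 genes and 2 H4 genes. RNA had been sequenced from EW8-RRM1-KO and TC71-RRM1-KO, conditional knockout versions of EW8 and TC71, which are cell lines from Ewing sarcoma, a cancer of bone and soft tissue driven by the EWS-FLI1 fusion protein. Cells of all 4 groups lacked the endogenous RRM1 gene, disrupted by CRISPR/Cas9, and carried a codon-optimised RRM1 under a doxycycline-inducible promoter in a Lenti-X-Tet-One vector. RRM1 is the large subunit of ribonucleotide reductase, the enzyme that makes deoxyribonucleotides for DNA synthesis. In each line, 3 libraries were made at 0 h, with doxycycline present, and 3 at 48 h after doxycycline was removed. The knockout lines had been single-cell cloned, so each group stood for a clonal derivative of its line, and the 48 h groups differed from the 0 h groups in the drug as well as in the transgene, which cannot be told apart. The labels do not say whether the replicates were separate cultures, so the p-values measure only the spread between these samples.

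Histones are the proteins around which DNA is wrapped, H2A, H2B, H3 and H4 forming the core of the nucleosome and H1 binding the linker DNA between nucleosomes. The replication-dependent genes lie in clusters, have no introns in their main transcripts, and are expressed chiefly in S phase, when new DNA has to be packaged. Their mRNAs are the known exception among animal mRNAs in that they end in a conserved stem-loop bound by SLBP rather than in a poly(A) tail, and they are degraded rapidly when DNA synthesis is blocked. Because the libraries were made from poly(A) RNA, the counts of these genes cover only transcripts that carried a tail or were carried over without one. These sources, a change in transcript number and a change in the tailed share cannot be told apart here.

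In the annotation (hg38, GENCODE release 44), 15 of the 19 genes lay on chromosome 6 between 26055740 and 27893106 and 3 (H2BC18, H2BC21 and H2AC20) on chromosome 1 between 149782689 and 149887411. The remaining one, H1-10, was a single gene at chr3:129314771-129316286 on the minus strand. The letters of the histone stem-loop (GG, any pair of bases, CTTTT, any base, AG, any pair of bases, CC) were searched for in the 150 bases after the stop codon. They were found in all 18 genes on chromosomes 6 and 1 and not in H1-10, against 70 of 19919 annotated genes (0.351%), of which 52 were not among the 19. H1-10 is known as a replication-independent linker histone. By position and stem-loop letters, the name of clustered replication histones held for 18 of the 19 genes and not for H1-10.

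The stem-loops are printed because they set the 18 genes apart from H1-10 and are the known end of mRNAs without a poly(A) tail. Each sequence runs 5′ to 3′ on the coding strand with the 16 bases of the stem-loop in capitals, and the genes shown represent each of the 5 forms found.
H2BC15, chr6:27839090-27839105, plus strand: cccaaaGGCTCTTTTCAGAGCCactcag
H2BC4, chr6:26123472-26123487, minus strand: cccaaaGGCTCTTTTAAGAGCCacccag
H4C8, minus strand: accaaaGGCCCTTTTCAGGGCCgcccac
H2AC11, chr6:27133515-27133530, plus strand: accaacGGCTCTTTTCAGGGCCacccac
H2AC20, plus strand: accaaaGGCTCTTTTTAGAGCCacccaa
The form of H2BC15 was shared by 10 genes, that of H2BC4 by 4 genes, all of them H2B (H2BC4, H2BC5, H2BC11 and H2BC12), and that of H4C8 by both H4 genes, whereas the forms of H2AC11 and H2AC20 were each found once. In 17 of the 18 the stem could pair fully, H2AC11 being the exception. The canonical transcript of every one of the 19 genes had 1 exon, and in 17 of the 18 it ended within 50 bases past the stem-loop. The exception was H2BC21, whose 1 annotated transcript ran on for 1729 bases past it. For 8 of the 18 genes (H2BC18, H2BC4, H2AC6, H2BC5, H4C8, H2BC11, H2BC15 and H3C12) the annotation also held longer spliced transcripts.

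Promoter motifs were found in part of the genes. RefSeq promoter windows (GRCh38.p14, 250 bases before to 50 bases after the start) matched 17 of the 19 genes. The octamer ATTTGCAT, the binding motif of the OCT1 factor at H2B promoters, was present on either strand in 9 of 17 windows, against 1.77% of all 35116 windows. CCAAT was present in 15 of 17 (34.6% of all windows), TATAAA in 12 of 17 (11.5%) and the H1 box AAACACA in 3 of 17 (5.64%). The window of H4C8 held none of these 4 motifs and that of H1-10 held TATAAA alone. The windows with the octamer include that of H3C4, whose RefSeq and GENCODE starts differ. In 4 cases an H2A and an H2B gene were transcribed away from each other, with 236 to 248 bases between their starts: H2BC21 and H2AC20, H2BC4 and H2AC6, H2BC11 and H2AC11, and H2BC13 and H2AC13, so the windows of such a pair share much of their sequence. Shown here are the windows of 3 H2B genes whose levels are described next, with the octamer, CCAAT and TATAAA letters of either strand in capitals.
H2BC4, chr6:26123877-26124176, minus strand: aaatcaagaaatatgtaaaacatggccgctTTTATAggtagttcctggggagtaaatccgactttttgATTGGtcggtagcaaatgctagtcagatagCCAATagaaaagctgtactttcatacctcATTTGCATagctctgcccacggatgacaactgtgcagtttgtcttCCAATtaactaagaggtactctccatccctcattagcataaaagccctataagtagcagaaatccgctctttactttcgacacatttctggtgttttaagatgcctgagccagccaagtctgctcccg
H2BC12, chr6:27146809-27147108, minus strand: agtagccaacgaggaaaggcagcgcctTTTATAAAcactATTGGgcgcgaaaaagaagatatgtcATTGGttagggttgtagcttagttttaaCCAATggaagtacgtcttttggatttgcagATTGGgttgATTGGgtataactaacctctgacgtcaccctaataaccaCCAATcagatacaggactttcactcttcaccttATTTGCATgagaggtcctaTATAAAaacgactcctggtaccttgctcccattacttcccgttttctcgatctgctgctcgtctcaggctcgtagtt
H2BC15, chr6:27838319-27838618, plus strand: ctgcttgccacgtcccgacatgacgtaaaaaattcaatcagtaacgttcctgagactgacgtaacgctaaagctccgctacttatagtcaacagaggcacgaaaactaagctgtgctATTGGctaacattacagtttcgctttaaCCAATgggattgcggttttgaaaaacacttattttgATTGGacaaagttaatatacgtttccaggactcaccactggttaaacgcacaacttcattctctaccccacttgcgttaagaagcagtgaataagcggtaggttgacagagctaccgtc
The window of H2BC4 overlaps that of its divergent partner H2AC6, and both it and that of H2BC12 hold the octamer, whereas the window of H2BC15 holds CCAAT letters alone of these 3 motifs.

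The libraries held 18468485 to 35698991 counts, and levels are given as CPM, counts relative to the library total after TMM scaling, which adjusts that total for composition. The targeted gene was checked first. At 0 h in EW8 the RRM1 counts were 214, 166 and 317, and at 48 h they were 1201, 1449 and 1514, a log2 fold change of 2.88 (SE 0.07, edgeR adjusted p = 3.37e-27). The TC71 counts were 422, 316 and 418 against 674, 707 and 778 (0.65, SE 0.07, edgeR adjusted p = 2.91e-09). RRM1 counts were therefore higher in the libraries labelled 48 h, the time after doxycycline removal. Whether reads of the codon-optimised transgene were counted under RRM1 is not given, so this count does not check the labels, and the groups are named as labelled throughout. All 10 Ewing sarcoma markers passed the filter on low counts, and their sum was 3097 CPM at 0 h and 3145 CPM at 48 h in EW8, and 3046 and 3227 CPM in TC71. CCND1 had the highest counts of the 10 in every library, and single markers moved more than the sum. In EW8 7 rose (37.0% of all genes tested) and 3 fell (31.6%) by adjusted p, and in TC71 6 rose (22.9%) and 2 fell (19.2%). The numbers that fell are near the shares of all genes. BCL11B was called down in EW8 (−1.11) and fell by 0.95 on the log2 scale in TC71, while CD99 (−0.45) and NR0B1 (0.98), named after their values were seen, changed in EW8 without reaching the fold threshold. Of 5 blood cell markers only PTPRC was measured, at 0 to 5 counts a library. Of 5 epithelial markers 3 were measured, and their sum went from 8.45 to 22.3 CPM in EW8 and from 72.0 to 104.7 CPM in TC71. Of 5 fibroblast markers 4 were measured, and their sum went from 158.8 to 217.3 and from 67.9 to 95.9 CPM. KRT8 (2.01), KRT18 (1.33) and COL1A1 (1.79) were called up in EW8 (13.9% of all genes), and none of these markers was called in TC71 (3.26% up). The part of the epithelial and fibroblast markers in the histone results was not tested.

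The histone genes were a small share of the libraries, 0.0109 to 0.0113% of all counts in EW8 at 0 h and 0.0281 to 0.0292% in TC71 at 0 h. H1-10 made up 44.2% of the summed CPM of the 19 genes in EW8 at 0 h, followed by H2BC12 (25.5%). In TC71 at 0 h, H2BC12 held 31.5%, H2AC6 25.8% and H1-10 16.1%. Per kilobase of annotated exon (RPKM), the order in EW8 at 0 h was H2BC12 (61.6), H1-10 (34.9), H1-2 (12.4), H2BC5 (7.48) and H2AC6 (5.01). In TC71 at 0 h it was H2BC12 (179.3), H2AC6 (43.6), H1-2 (41.3), H1-10 (29.9) and H2BC5 (22.9), where the libraries of H2AC6 and H1-2 overlapped. By this length H2BC12 was the most abundant of the 19 genes in both lines. The order holds for this length only, since spliced transcripts give H2BC15 4265 bases of annotated exon against 542 in its canonical transcript, H2AC6 1668 against 519 and H2BC5 861 against 486. At the other end, H2BC18 (0 to 12 counts a library), H4C3 (1 to 7) and H3C12 (0 to 6) did not pass the filter on low counts, which left 16 of the 19 genes for testing, and 3 counts corresponded to 0.0915 to 0.172 CPM.

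**Figure D1:**
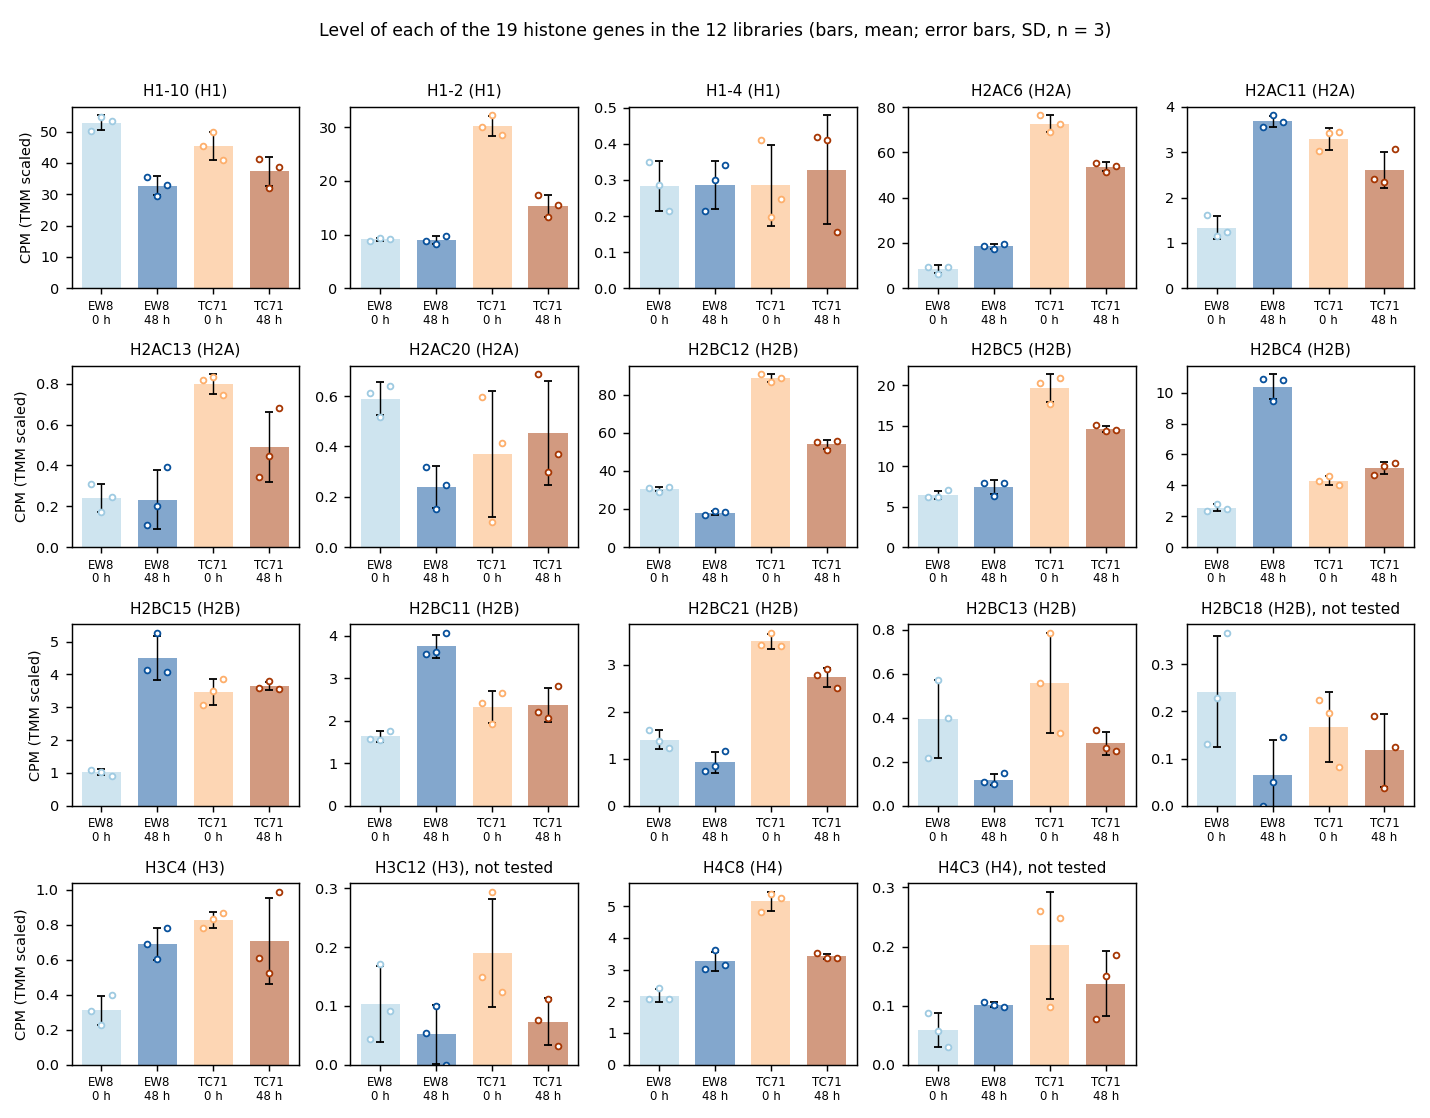
Level of each of the 19 histone genes in every library (CPM, vertical axis from 0, one panel a gene), with bars at the group means and error bars of 1 SD over 3 libraries. H2BC12 falls in both lines, whereas H2BC4 and H2BC15 are several times higher at 48 h in EW8 and nearly level in TC71.

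The first comparison asked what happened to the histone genes in EW8 48 h after doxycycline removal. A gene was called when its edgeR adjusted p was below 0.05 and its fold above 2. Of the 16 tested genes, 6 were called up (H2BC15, H2BC4, H2AC11, H2BC11, H2AC6 and H3C4), against 13.9% of all 16515 genes tested, and 2 were called down (H2BC13 and H2AC20), against 3.35%. By adjusted p alone 7 rose (37.0% of all genes) and 5 fell (31.6%). The same genes were those whose 0 h and 48 h libraries did not overlap (37.9% of all genes upward and 33.2% downward). All 7 that rose and 4 of the 5 that fell were core histone genes, but only 3 of the 16 tested genes were linker histones. The median over the 16 genes was 0.12, beside 0.03 over all genes, and it moved with the setting, from 0.03 without EW8 48 h replicate 3 and 0.25 without EW8 48 h replicate 1 to 0.25 with total counts alone, 0.59 with at least 10 counts in every library and 0.80 with each line fitted alone, the last 2 over fewer genes. In these bulk samples, a different share of cells in S phase and a different amount of histone RNA per cell cannot be told apart.

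Among the H2B genes, which encode a core partner of H2A, H2BC4 gave 2.37, 2.81 and 2.44 CPM at 0 h and 10.9, 9.47 and 10.8 CPM at 48 h. Its log2 fold change was 2.05 (SE 0.12, edgeR adjusted p = 2.10e-16). H2BC15 gave 1.09, 1.03 and 0.915 CPM at 0 h and 4.15, 5.26 and 4.06 CPM at 48 h, with a log2 fold change of 2.16 (SE 0.18, edgeR adjusted p = 1.15e-12). Every 48 h library of these 2 genes was more than 3 times as high as any 0 h library. H2BC11 went from 1.58, 1.55 and 1.77 CPM to 3.56, 3.61 and 4.06 CPM (log2 fold change 1.18, SE 0.17, edgeR adjusted p = 3.07e-07). H2BC12, the most abundant H2B gene, moved the other way, from 30.9, 29.2 and 31.4 CPM to 16.9, 18.9 and 18.4 CPM (−0.76, SE 0.06, edgeR adjusted p = 1.34e-12). H2BC4 and H2BC12, which rose and fell respectively, have the same 16-base stem-loop and both have the octamer in the promoter window. H2BC5 gave 6.13, 6.19 and 7.02 CPM at 0 h and 7.98, 6.37 and 7.88 CPM at 48 h, so its libraries overlapped, and it did not pass the test (0.18, interval of 2 SE −0.04 to 0.41, edgeR adjusted p = 0.138). With total counts in place of TMM, or without EW8 48 h replicate 2, H2BC5 passed (edgeR adjusted p = 0.0143 and 0.0354).

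Among the H2A genes, H2AC6 rose from 9.24, 6.36 and 9.46 CPM to 18.8, 17.1 and 19.6 CPM (log2 fold change 1.11, SE 0.10, edgeR adjusted p = 1.60e-11), or by 0.95 without EW8 0 h replicate 2, its lowest library. H2AC11 rose from 1.62, 1.15 and 1.25 CPM to 3.56, 3.81 and 3.67 CPM (1.45, SE 0.18, edgeR adjusted p = 8.24e-09). Both genes of the divergent pairs H2BC4 with H2AC6 and H2BC11 with H2AC11 were thus called up. The pair on chromosome 1 fell instead, H2BC21 from 1.62, 1.37 and 1.22 CPM to 0.744, 0.852 and 1.17 CPM (−0.58, SE 0.24, edgeR adjusted p = 0.0315) and H2AC20 from 14, 9 and 21 counts to 6, 3 and 5 counts (−1.32, SE 0.47, edgeR adjusted p = 0.0139). H2AC20 no longer passed without EW8 48 h replicate 2 (−1.08, edgeR adjusted p = 0.0726). H2BC21 no longer passed without any one of EW8 0 h replicate 1, EW8 48 h replicate 1 or EW8 48 h replicate 2 (edgeR adjusted p 0.0992, 0.136 and 0.0943), nor with total counts alone (0.0916) or the DESeq2 Wald test (adjusted p 0.0587). In the remaining pair H2BC13 had 5, 10 and 13 counts before removal and 2, 2 and 3 after it, a ratio of CPM of 0.309 with a 95% counting interval of 0.114 to 0.723, while H2AC13 did not pass (−0.06, interval −1.11 to 0.99).

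The H3 and H4 genes were low. H3C4 went from 0.307, 0.229 and 0.397 CPM to 0.691, 0.602 and 0.783 CPM (log2 fold change 1.07, SE 0.37, edgeR adjusted p = 0.0114), and it was under the fold threshold without EW8 0 h replicate 1 or 2 or EW8 48 h replicate 3 (0.90 to 0.99). Without EW8 0 h replicate 2 the number called up was 4. H4C8 went from 2.06, 2.41 and 2.07 CPM to 3.03, 3.61 and 3.13 CPM (0.60, SE 0.16, edgeR adjusted p = 0.00107). The libraries of both did not overlap between the times. H3C4, H2AC20 and H2BC13 have too few counts for the naming rule and are named because they complete the called genes.

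Of the linker histones, H1-10 fell from 50.4, 54.8 and 53.5 CPM to 35.6, 29.5 and 33.0 CPM (log2 fold change −0.69, SE 0.09, edgeR adjusted p = 2.35e-06). The stem-loop linker histone H1-2, in contrast, gave 8.80, 9.28 and 9.18 CPM at 0 h and 8.88, 8.32 and 9.74 CPM at 48 h. Its libraries overlapped, and the interval of its difference was −0.22 to 0.19 (log2 fold change −0.02, edgeR adjusted p = 0.902). H1-4, at 4 to 11 counts a library over all groups, could not be measured closely (0.06, interval −0.93 to 1.06).

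In TC71, doxycycline removal gave no histone gene called up by edgeR (0 of 16, against 3.26% of all genes) and none called down (0 of 16, against 0.854%), and DESeq2 also called 0 in each direction. At an unadjusted p below 0.05, edgeR put 1 gene (H2BC4) higher (26.3% of all genes) and 10 lower (23.0%), and DESeq2 put 0 higher and 6 lower. By adjusted p alone 0 rose (22.9% of all genes) and 7 fell (19.2%): H1-2, H1-10, H2BC12, H4C8, H2AC6, H2BC5 and H2BC21. Libraries did not overlap for 7 genes downward (23.7% of all genes) and for H2BC4 upward (25.9%). The median over the 16 genes was −0.34, beside −0.0013 over all genes.

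Among the linker histones in TC71, H1-2 fell from 30.0, 32.2 and 28.5 CPM to 17.3, 13.3 and 15.5 CPM (log2 fold change −0.97, SE 0.08, edgeR adjusted p = 2.80e-12). It exceeded the fold threshold without TC71 0 h replicate 3 and without TC71 48 h replicate 1 (−1.01 and −1.06), and the number called down then was 2 and 1. H2BC13 (−0.95, edgeR adjusted p = 0.0510) passed without EW8 0 h replicate 1 (edgeR adjusted p = 0.0478) and was called without TC71 0 h replicate 3 (−1.21), and H2AC13 (−1.0005) without TC71 48 h replicate 3, which gave 1. H1-10 gave 45.4, 49.8 and 40.8 CPM against 41.2, 32.1 and 38.6 CPM, and its libraries overlapped (−0.28, SE 0.09, edgeR adjusted p = 0.0161). H1-10 no longer passed without TC71 0 h replicate 2 or EW8 0 h replicate 2 (edgeR adjusted p 0.0555 and 0.0506), nor with total counts alone or each line fitted alone (0.0693 and 0.0627).

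The core histone genes of highest CPM in TC71, H2BC12 and H2AC6, fell. H2BC12 went from 90.7, 86.6 and 89.0 CPM to 55.1, 51.2 and 55.6 CPM (log2 fold change −0.72, SE 0.05, edgeR adjusted p = 1.04e-13). H2AC6 went from 76.4, 69.1 and 72.7 CPM to 55.5, 51.5 and 54.2 CPM (−0.44, SE 0.06, edgeR adjusted p = 1.97e-06). H2BC5 (−0.43) and H4C8 (−0.59) fell with them, as did H2BC21 (−0.36, SE 0.15, edgeR adjusted p = 0.0487). H2BC21 missed the threshold when EW8 0 h replicate 2, EW8 48 h replicate 1 or 2, any TC71 0 h replicate, or TC71 48 h replicate 1 or 3 was left out (edgeR adjusted p 0.0513 to 0.166). It also missed it with total counts alone, with no filter on low counts and with each line fitted alone (edgeR adjusted p 0.0910, 0.0654 and 0.0527), and by DESeq2 (adjusted p 0.164). The H2B genes that had risen in EW8 did not pass in TC71. H2BC4 gave 4.25, 4.61 and 4.01 CPM at 0 h and 4.69, 5.22 and 5.44 CPM at 48 h (0.26, interval 0.03 to 0.50, edgeR adjusted p = 0.0729), and passed with total counts alone or without TC71 48 h replicate 1 (0.0328 and 0.0495). H2BC15 gave 3.05, 3.48 and 3.85 CPM against 3.59, 3.80 and 3.56 CPM, with overlapping libraries (0.08, interval −0.20 to 0.36), and H2BC11 likewise (0.02, interval −0.31 to 0.35). H2AC11 did not pass either (−0.32, interval −0.62 to −0.02, edgeR adjusted p = 0.0850), but did without TC71 48 h replicate 3 (−0.46, edgeR adjusted p = 0.0277).

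**Figure D2:**
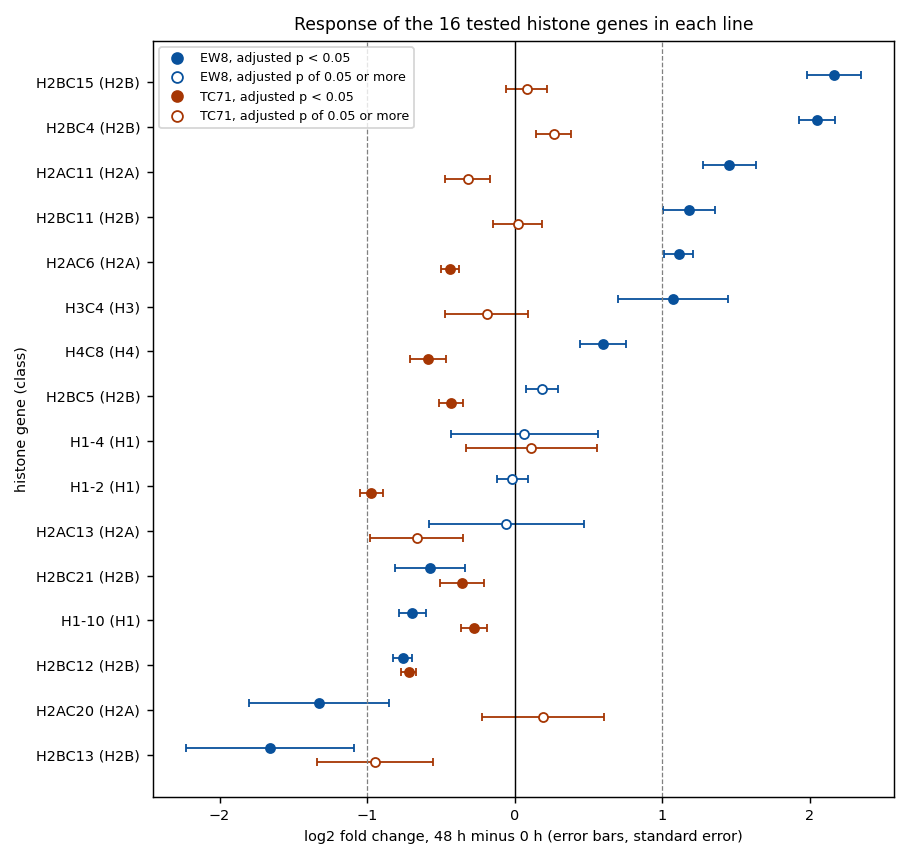
Log2 fold change from 0 h to 48 h of the 16 tested histone genes in EW8 and TC71, with bars of 1 SE, filled points for edgeR adjusted p below 0.05 and dashed lines at a fold of 2. H2BC12 lies at nearly the same value in the 2 lines, whereas H2BC15, H2BC4, H2AC11 and H2AC6 lie far to the right in EW8 alone.

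Whether the 2 lines differed in their response was tested directly, as the EW8 change minus the TC71 change. Of the 16 genes, 7 were called with the higher change in EW8 (against 7.28% of all genes) and 1, H2AC20, with the lower one (against 0.981%). By adjusted p alone the counts were 9 (25.7% of all genes) and 2 (22.4%). The largest differences were those of H2BC15 (2.08 on the log2 scale, SE 0.23, edgeR adjusted p = 4.59e-09), H2BC4 (1.78, SE 0.18, 2.81e-10), H2AC11 (1.77, SE 0.23, 1.14e-07) and H2AC6 (1.55, SE 0.12, 4.45e-12). H2AC6 had changed in opposite directions in the 2 lines, as had H4C8, whose difference was 1.19 (SE 0.20, edgeR adjusted p = 7.07e-06). H3C4 (1.26, SE 0.47, edgeR adjusted p = 0.0250) and H2BC11 (1.16, SE 0.24, 0.000155) completed the 7. H3C4 no longer passed in 5 of the 12 fits that each left out 1 library, namely EW8 0 h replicates 1 and 2, EW8 48 h replicate 3 and TC71 48 h replicates 1 and 2 (1.09 to 1.20), nor by DESeq2. H2AC20 (−1.52, SE 0.64, edgeR adjusted p = 0.0481) no longer passed in 7 such fits, those without EW8 0 h replicates 1 and 3, EW8 48 h replicates 2 and 3, TC71 0 h replicates 2 and 3 or TC71 48 h replicate 1 (−1.57 to −1.12).

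The linker histones H1-2 (0.96, SE 0.13, edgeR adjusted p = 1.87e-07) and H1-10 (−0.41, SE 0.13, edgeR adjusted p = 0.0114) differed between the lines within a fold of 2, as did H2BC5 (0.62). H1-2 was called without EW8 48 h replicate 2 (1.01), without TC71 48 h replicate 1 (1.04) or with total counts alone (1.03), and H1-10 did not pass with total counts alone (edgeR adjusted p = 0.0547). No difference was detected for H2BC12, with an interval of −0.20 to 0.12 (edgeR adjusted p = 0.713). For this abundant gene a difference of a fold of 2 lies outside the interval, whereas for H1-4 (−1.39 to 1.29), H2BC13 (−2.13 to 0.71) and H2AC13 (−0.64 to 1.85) it does not.

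The lines were also compared at 0 h, with the libraries that enter the responses above. In EW8 10 of 16 genes were called lower than in TC71 (against 11.9% of all genes) and 0 higher (against 4.77%). H1-10 was the 1 gene higher at an unadjusted p below 0.05 (33.8% of all genes), and DESeq2 called 0 higher. By adjusted p alone 12 were lower (32.9% of all genes) and H1-10 was higher (32.8%), and the same genes did not overlap between the lines (34.3% and 34.0%). H2AC6 showed the largest gap, at 6.36 to 9.46 CPM in EW8 and 69.1 to 76.4 CPM in TC71 (log2 difference −3.09, SE 0.08, edgeR adjusted p = 8.64e-24), which is 8.49-fold lower in EW8. H2BC15 (−1.78), H1-2 (−1.73), H2AC13 (−1.68), H2BC5 (−1.60) and H2BC12 (−1.54) followed, and H2BC21, H3C4, H2AC11 and H4C8 lay between −1.33 and −1.25. H1-10 was higher in EW8 (0.22), but did not pass without EW8 0 h replicate 2 or 3 or TC71 0 h replicate 1 or 3 (edgeR adjusted p 0.0652 to 0.118), nor with total counts alone (0.09, edgeR adjusted p = 0.414) or with at least 10 counts in every library (0.20, edgeR adjusted p = 0.0589). H2BC11 (−0.51) did not pass without EW8 0 h replicate 1 or TC71 0 h replicate 1 or 3 (edgeR adjusted p 0.0517 to 0.0884). H2AC20 (0.62, interval −0.19 to 1.42) did not pass, but was called higher without TC71 0 h replicate 1 (1.15, edgeR adjusted p = 0.0453).

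Summed levels also differed between the lines. The 18 stem-loop genes together went from 66.7 ± 2.87 to 81.2 ± 2.98 CPM (SD, n = 3) in EW8, a ratio of 1.22, and from 237 ± 5.34 to 160.1 ± 6.90 CPM in TC71, a ratio of 0.676, so that TC71 at 0 h held 3.55 times the level of EW8. The 0 h and 48 h libraries of this sum did not overlap in either line. In EW8 the sum was not a direction shared by its genes. Within it the means of H2AC6 (8.35 to 18.5 CPM) and H2BC4 (2.54 to 10.4 CPM) rose, while that of H2BC12 fell (30.5 to 18.1 CPM). With H1-10 included, the sum over all 19 genes went the other way in EW8, from 119.6 ± 2.63 to 114 ± 4.80 CPM (ratio 0.953). That direction reversed with total counts alone (log2 ratio 0.0547), a scaling that also moved the EW8 median of all genes from 0.03 to 0.16. In TC71 the sum over all 19 genes was lower as well, from 282.1 ± 5.03 to 197.4 ± 11.6 CPM (ratio 0.700). Within the core histones, the H2A sum went from 10.5 ± 2.02 to 22.6 ± 1.29 CPM in EW8 and from 77.2 ± 3.66 to 57.3 ± 2.34 CPM in TC71. The H2B sum stood at 44.2 ± 1.32 and 45.2 ± 1.24 CPM in EW8, where the fall of H2BC12 and the rises of H2BC4, H2BC15 and H2BC11 stood against each other, and at 123 ± 3.25 and 82.8 ± 2.64 CPM in TC71. No test was made of these sums.

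**Figure D3:**
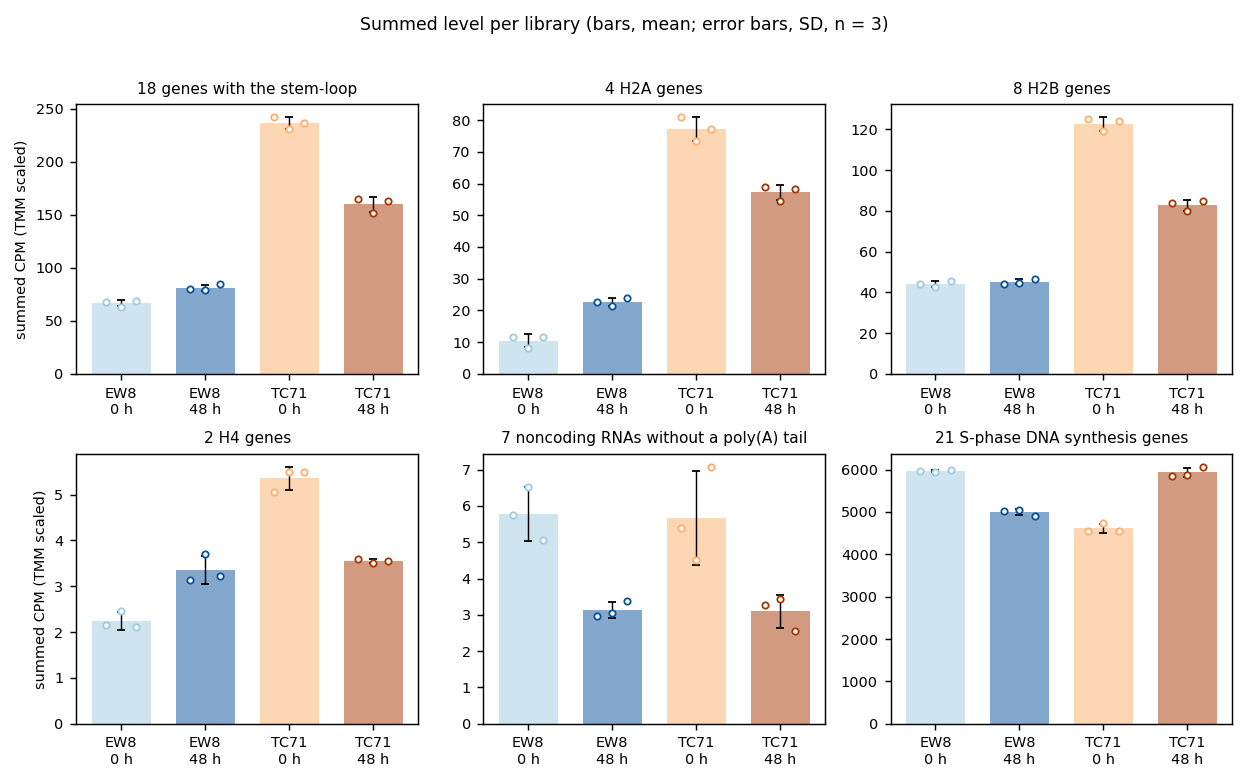
Summed CPM in every library for 6 groups of genes: the 18 stem-loop histone genes, the 4 H2A genes, the 8 H2B genes, the 2 H4 genes, 7 RNAs known to lack a poly(A) tail, and 21 S-phase genes; bars are means and error bars 1 SD of 3 libraries. The stem-loop and S-phase sums move in opposite directions to each other in each line, and the RNAs without a tail are lower at 48 h in both.

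RNAs that lack a poly(A) tail, such as small nucleolar RNAs, can reach such libraries by carry-over, and were followed beside the histone genes. The source of their counts was not tested. The 7 measured of 37 listed summed to 5.78 ± 0.734 CPM at 0 h and 3.14 ± 0.211 CPM at 48 h in EW8, and to 5.66 ± 1.30 and 3.09 ± 0.462 CPM in TC71. One of them, SNORA73B, held much of this sum, with 74, 54 and 99 counts in EW8 at 0 h and 21, 24 and 21 at 48 h, and was called down in both lines (−1.48 and −1.37). This sum was lower at 48 h in both lines, whereas the stem-loop sum was higher in EW8 and lower in TC71. The other 2 tested had low counts and did not pass in either line, RMRP at −0.37 in EW8 and −0.54 in TC71 and SNORD3A at 0.23 and 0.25. Whether these RNAs shared a drop was not tested. The part of carry-over in the histone results was not tested. The stem-loop genes were also divided by annotated transcript structure, promoter and position, splits chosen after the values were seen and for which no test is given. Over all genes, 37.0% rose and 31.6% fell in EW8 by adjusted p, and 22.9% and 19.2% in TC71. Of the 6 tested genes with spliced transcripts, 5 rose and 0 fell in EW8 (median log2 fold change 1.14), the other one being H2BC5. Of the 9 stem-loop genes with unspliced transcripts alone, 2 rose (H2AC11 and H3C4) and 4 fell (median −0.06). In TC71 the counts were 0 rising and 3 falling in each of these sets (medians −0.21 and −0.36). Leaving out H3C4, whose RefSeq and GENCODE starts differ, 4 of 7 tested stem-loop genes with the octamer rose and 3 fell in EW8, and 2 of 7 without it rose and 1 fell. In the first chromosome 6 group (26055740 to 26285638) 4 of 7 tested genes rose in EW8 and 0 fell, and both tested chromosome 1 genes fell. Nothing is read from such small counts.

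The machinery around these mRNAs was followed with lists of related genes. For processing and decay of histone mRNA, EW8 showed 6 of 25 genes rising (37.0% of all genes) and 14 falling (31.6%). TC71 showed 7 rising (22.9%) and 6 falling (19.2%), which is near the shares of all genes. The medians were −0.27 and 0.03. SLBP, the protein that binds the stem-loop and carries the mRNA through processing and translation, fell in EW8 by 0.57 on the log2 scale (SE 0.04), rose in TC71 by 0.17, and differed between the lines by −0.74. In EW8 2 genes of this list were called up (13.9% of all genes) and 0 down (3.35%). TUT7 (1.42 in EW8 and 0.43 in TC71) adds uridines to RNA ends. ZNF473 (1.14 and 0.43) is a zinc finger protein of the U7 processing complex. None was called in TC71 (3.26% of all genes up and 0.854% down), where 13 passed by adjusted p alone. SLBP thus changed in the direction opposite to the summed stem-loop levels in both lines.

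For transcription of histone genes, 9 of 16 rose (37.0% of all genes) and 6 fell (31.6%) in EW8. There 0 were called, against 13.9% of all genes up and 3.35% down. In TC71 6 rose (22.9% of all genes) and 3 fell (19.2%). CCNE2 (1.17), a cyclin of the G1/S transition, was the 1 called up in TC71 (3.26% of all genes). NPAT, the co-activator of the histone gene clusters, rose in both lines (0.38 and 0.19). Among histone chaperones, 10 of 26 rose (37.0% of all genes) and 12 fell (31.6%) in EW8, while in TC71 11 rose (22.9%) and 4 fell (19.2%). NPM1, a nucleolar chaperone, was the 1 called down in EW8 (−1.29, against 3.35% of all genes). ASF1B, a chaperone of H3 and H4, was the 1 called up in TC71 (1.06, against 3.26%). The number rising in EW8 and these calls are near the shares of all genes. Of 11 tested replication-independent histone genes, a list that includes H1-10, EW8 had 1 that rose (37.0% of all genes) and 7 that fell (31.6%). TC71 had 0 that rose (22.9%) and 2 that fell (19.2%). None of that list was called in either line, and the smallest p in EW8 was that of H3-3A, which encodes the variant H3.3 (−0.78 in EW8 and −0.02 in TC71).

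Genes of DNA synthesis in S phase, the phase in which clustered histone genes are expressed, changed differently in the lines. In EW8 6 of 21 rose (37.0% of all genes) and 14 fell (31.6%), and the list went from 5972 ± 29.4 to 4999 ± 75.9 CPM (SD, n = 3). PCNA, the sliding clamp of DNA polymerase, was the 1 called down there (−1.003, against 3.35% of all genes). In TC71 18 rose (22.9% of all genes) and 0 fell (19.2%), and the list went from 4617 ± 109 to 5937 ± 110.4 CPM. The licensing factor CDT1 was the 1 called up there (1.02, against 3.26% of all genes), and it also rose in EW8 (0.46). The change was lower in EW8 for 21 of 21 genes by adjusted p (22.4% of all genes). The summed stem-loop histone levels were thus higher at 48 h where most S-phase genes fell and were lower where most of them rose. This describes sums over 2 lines with no test. Single stem-loop genes moved both ways in EW8, where 7 of 15 tested rose (37.0% of all genes) and 4 fell (31.6%) by adjusted p.

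**Figure D4:**
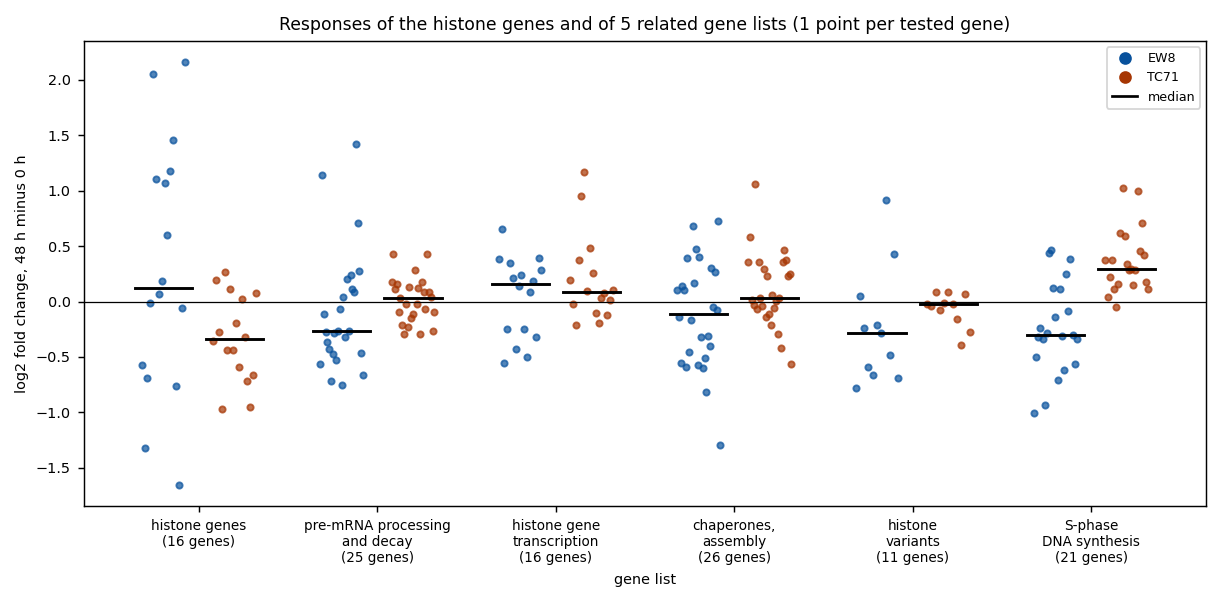
Log2 fold change from 0 h to 48 h in EW8 and TC71 for the 16 tested histone genes and for the tested genes of 5 lists (25 for processing and decay, 16 for transcription, 26 chaperones, 11 replication-independent histones and 21 S-phase genes), each point a gene and each line a median. The histone genes spread from −1.66 to 2.16 in EW8, whereas the S-phase genes lie mostly below 0 in EW8 and above 0 in TC71.

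How the reads were assigned limits single genes. Histone genes of one class are close copies in their coding sequence, and whether reads that map to several of them were counted is not given, so values of single paralogs are uncertain. The annotated exons of 7 of the 19 genes overlap another gene. For 3 of them this was on the same strand, as for 486 of the 503 annotated exon bases of H3C4. On the opposite strand, 460 of the 2881 annotated exon bases of H2BC4, whose canonical transcript has 460 bases, overlapped another gene. The strand setting of the counting is not given, and both genes were called up in EW8.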

How the data were processed

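The members and gene lists were chosen with earlier results of these data known, and 1 gene that the rule found is not reported here. Poly(A) RNA from 12 samples, 3 replicates in each of 4 groups, had been made into stranded mRNA libraries and read as paired ends of 100 bases. The authors used FastQC and STAR with hg38, per the submitters' processing notes and the study's methods, without versions. The counting tool, annotation, strand setting and treatment of multiply mapped reads are not given in the sources used here. The authors deposited raw whole-number counts per gene, in which no gene had under 21 counts in all 12 libraries together. No value column was left unmapped to a sample.

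Groups came from the sample labels. From the deposited counts, edgeR 4.0.16 (R 4.3.3) was run on all 12 libraries in 1 model of 4 groups with filterByExpr (minimum count 10, minimum total 15), TMM scaling and the robust quasi-likelihood test, leaving 16515 genes, with Benjamini-Hochberg adjustment over all of them. The SE is the absolute log2 fold change divided by the square root of F, and intervals are 2 SE to either side. Calls need a fold above 2 with adjusted p below 0.05. The script was tested on simulated data. Library totals of 18468485 to 35698991 counts set the precision, and counting intervals and the floor of 3 counts cover counting error only. Identifiers matched GENCODE 44 for 19943 of 20771 genes, which gave exons and stem-loops, and RefSeq gave the promoter windows. Named genes were RRM1, all H1 genes, the 10 members of highest mean CPM, up to 5 called members per contrast and direction with at least 20 counts on average in the lower group, and from each list SLBP, NPAT and up to 4 called genes or, where none was called, those of smallest p in EW8. Alternatives were DESeq2 1.42.0, other scalings and filters, no fold threshold, each line alone, a replicate block and each library left out. Replicates of a group differed by more than counting noise (chi-square per gene 2.05 to 9.48). Figures were drawn with matplotlib 3.10.9.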

Additional observations from a re-analysis of the deposited data

Results flagged for a closer look

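The response to doxycycline removal differed between the lines for 11 of the 16 tested histone genes, by the test of the EW8 change minus the TC71 change itself (edgeR adjusted p below 0.05), 9 higher in EW8 beside 25.7% of all genes and 2 lower beside 22.4%. The difference on the log2 scale was 2.08 for H2BC15, 1.78 for H2BC4, 1.77 for H2AC11, 1.55 for H2AC6, 1.26 for H3C4, 1.19 for H4C8, 1.16 for H2BC11, 0.96 for H1-2 and 0.62 for H2BC5, all with the higher change in EW8. It was −0.41 for H1-10 and −1.52 for H2AC20, with the lower change in EW8. H3C4 no longer passed in 6 of the alternative settings run, H2AC20 in 9 and H1-10 in 1, that of total counts alone.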

How the results depend on the processing

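The numbers of histone genes called depended on a few settings. In EW8 the 2 called down became 0 with at least 10 counts in every library, 0 with each line fitted alone and 5 with no fold threshold. In TC71 the 0 called down became 7 with no fold threshold. For the difference between responses, the 1 called lower in EW8 became 0 with total counts alone, with at least 10 counts in every library or with DESeq2, and 2 with no fold threshold. At 0 h, the 0 called higher in EW8 became 1 with no fold threshold. With 1 library left out, the numbers ranged from 4 to 6 up and 1 to 2 down in EW8, 0 to 2 down in TC71, 6 to 8 higher and 0 to 1 lower in EW8 for the difference, and 0 to 1 higher in EW8 at 0 h. Fewer genes were tested in some settings, 11 with at least 10 counts in every library and 12 with each line alone. H2BC13 and H2AC20, both down to 2 counts in a library, were not tested in EW8 in these 2 settings, so their calls were lost to the filter. With total counts alone, a setting added after seeing the data for the sums, the log2 ratio of 48 h to 0 h reversed from −0.07 to 0.0547 for all 19 genes in EW8, and went from 0.28 to 0.41 for the stem-loop genes in EW8 and from −0.56 to −0.51 for those in TC71. This scaling moved the median of all genes in EW8 from 0.03 to 0.16. With 1 library left out, the same ratios were −0.093 to −0.036, 0.25 to 0.31 and −0.586 to −0.529. No gene that passed the test in a comparison changed sign there. Values that had not passed and did change sign were those of H1-2, H1-4 and H2AC13 in EW8, H2AC20, H1-4, H2BC11 and H2BC15 in TC71, H1-4 and H2BC12 for the difference, and H1-4 at 0 h. Same-numbered replicates did not pair (correlations within a line −0.138 to −0.0147), and with the replicate block the counts of called genes were 6 up and 2 down in EW8, 0 and 0 in TC71, 7 and 1 for the difference, and 0 and 10 at 0 h, with only H2BC21 in TC71 (adjusted p = 0.0604) losing its call by adjusted p. Low counts limit H2BC13, H2AC13, H1-4 and H2AC20 most, as the widths of their intervals show.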
